A study of Mus musculus with 3 samples.

Results

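Sox1, Sox2, Sox3 and Sox21 are genes of the SoxB family of transcription factors, described here across the cell classes and stages of the embryonic mouse trunk. The members were found by symbol, and each symbol matched 1 of the 33696 gene rows, so the set holds 4 genes: Sox1 (ENSMUSG00000096014, chromosome 8), Sox2 (ENSMUSG00000074637, chromosome 3), Sox3 (ENSMUSG00000045179, chromosome X) and Sox21 (ENSMUSG00000061517, chromosome 14). The study took trunk tissue from the third cervical to the second thoracic vertebral level of mouse embryos of the embryonic days E11.5, E12.5 and E13.5, and its title concerns SOX9 in the origin of brown fat. At each stage 3 littermates were pooled, dissociated with TrypLE and sequenced as 1 droplet library with the 10x Chromium 3' kit, version 3.1. The labels name no strain, mutation, transgene or treatment, so the groups are set apart by stage in the labels, and every group shares the pooling. With 1 library per stage no test between stages was possible: all intervals below are 95% intervals that cover counting error only, and stage cannot be told apart from the library and its litter.

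SoxB proteins are transcription factors that bind DNA through a high-mobility-group domain. Sox1, Sox2 and Sox3 form the SoxB1 group, whose members are activators that act largely interchangeably to keep neural progenitors dividing and undifferentiated. Sox21 belongs with Sox14, which is no member of the set, to the SoxB2 group of repressors, and in the chick spinal cord Sox21 was shown to promote neuronal differentiation against SoxB1 activity. Sox2 is also used outside the neural tube, in neural crest-derived glial precursors.

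All 4 genes had their highest levels in the same cell class, and the promoters of Sox1, Sox2 and Sox21 are shown to compare their composition. Each sequence is the RefSeq GRCm38.p6 strand of the gene, 5' to 3', from 250 bases before to 50 bases after the annotated start, at chr8:12395269-12395568 on the plus strand for Sox1, chr3:34649745-34650044 on the plus strand for Sox2 and chr14:118236981-118237280 on the minus strand for Sox21. This build is not that of the counts. Capitals mark every match, on either strand, to the motifs searched.
Sox1: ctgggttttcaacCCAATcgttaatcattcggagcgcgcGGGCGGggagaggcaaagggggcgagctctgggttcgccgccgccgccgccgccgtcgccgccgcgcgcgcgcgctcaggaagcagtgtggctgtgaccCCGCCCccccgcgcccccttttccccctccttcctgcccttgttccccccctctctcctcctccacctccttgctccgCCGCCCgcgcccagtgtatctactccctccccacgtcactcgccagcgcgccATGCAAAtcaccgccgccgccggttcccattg
Sox2: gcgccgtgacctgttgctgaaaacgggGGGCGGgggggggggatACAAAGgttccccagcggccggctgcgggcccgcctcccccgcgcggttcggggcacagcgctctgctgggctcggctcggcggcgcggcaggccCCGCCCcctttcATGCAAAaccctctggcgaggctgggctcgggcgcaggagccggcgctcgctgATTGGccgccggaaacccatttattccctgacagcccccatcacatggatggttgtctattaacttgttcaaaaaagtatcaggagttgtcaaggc
Sox21: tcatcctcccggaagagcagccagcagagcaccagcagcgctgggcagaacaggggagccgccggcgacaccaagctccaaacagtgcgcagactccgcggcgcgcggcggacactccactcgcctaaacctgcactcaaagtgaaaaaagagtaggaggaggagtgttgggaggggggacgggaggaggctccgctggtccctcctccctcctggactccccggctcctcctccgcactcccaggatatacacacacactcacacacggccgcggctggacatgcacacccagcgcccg
The motifs were ACAAAG and the shorter ACAAT (cores bound by SOX proteins), ATGCAAA (part of the octamer bound by POU proteins), CCAAT (bound by NF-Y), TATAAA (bound by the TBP protein), CAGCTG (an E-box, bound by proneural proteins) and GGGCGG (bound by Sp1), and no matches overlapped one another. ATGCAAA lay in both of the SoxB1 promoters shown, starting at base 269 of the Sox1 sequence and base 152 of the Sox2 sequence, and 4.63% of the 32851 promoters of the same length held it. ACAAAG began at base 45 of the Sox2 sequence, a motif held by 18.7% of all promoters. CCAAT was found at base 14 of Sox1 and, on the other strand, at base 205 of Sox2 (37.4% of all promoters), and GGGCGG occurred 3 times in Sox1 and 2 times in Sox2 (35.7%). The motifs ACAAT (31%), TATAAA (13.6%) and CAGCTG (16.3%) had no match in any of these 3 windows, and the Sox21 window held no match to any of the 7. All 3 were rich in GC, at 70.7% for Sox1, 66.3% for Sox2 and 65.7% for Sox21, against a median of 52.7% over all promoters, and held 37, 27 and 22 CpG dinucleotides, against a median of 7. A match is a string of letters and not a measured binding site.

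Cells with 4000 or more unique molecular identifiers (UMIs, each marking 1 captured RNA molecule) numbered 6334 in the E11.5 library, 6201 in the E12.5 library and 7594 in the E13.5 library, with medians of 12494, 11046 and 10261 UMIs. Between 10 and 16 cell barcodes were shared by each pair of libraries. Cells were put into classes by marker UMIs that left out all 4 SoxB genes. Cells that met the rules of certain pairs of classes, such as neurons and neural crest, were set apart as mixed. A cell that met only the progenitor and the crest rules was counted as crest. Neural progenitors (markers such as Hes5, Pax6, Fabp7 and Rfx4) numbered 1030, 344 and 53 cells, or 16.3%, 5.55% and 0.698% of the cells kept, in stage order. Neurons (Tubb3, Elavl3, Stmn2 and others) numbered 1297, 1386 and 472 cells, and neural crest and Schwann lineage cells (Sox10, Erbb3 and others) 148, 69 and 105 cells. All 9 progenitor markers had UMIs in the progenitor class at each stage. Their summed level there was 4635, 16061 and 30965 counts per 1000000 UMIs (CPM), of which Fabp7 made up 3026, 12647 and 27450 CPM. The crest marker list in the same progenitors stood at 14.9, 27.7 and 93.3 CPM, and the division marker Top2a at 739, 487 and 179 CPM, so the 53 progenitors of E13.5 differed from the earlier ones in more than the SoxB genes. The part of these shifts in the stage values below was not tested.

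All 4 SoxB genes were higher in neural progenitors than in any other class, in each of the 3 libraries. The transitional cells of E12.5, however, had intervals that overlapped those of progenitors for Sox1 (47.1 CPM, 34.7 to 62.4) and Sox3 (52.9 CPM, 39.8 to 69.1). The 12 transitional cells of E13.5 held 0 Sox1 and 5 Sox3 UMIs, too few to be set apart from progenitors for these 2 genes. Levels in CPM set the summed UMIs of the gene against all UMIs of the class; they follow the RNA captured at the 3' end and are not scaled by length, so the genes are not ranked against one another. Sox2, which holds neural progenitors in the undifferentiated state, was measured in progenitors at 562 CPM at E11.5 (549 to 575), 760 CPM at E12.5 (731 to 790) and 503 CPM at E13.5 (437 to 577). After every cell was thinned to 4000 UMIs, 87.7%, 90.4% and 79.2% of progenitors had a Sox2 UMI; unthinned, the shares were 98.6%, 98.5% and 88.7%. At full depth a Sox2 UMI was thus found in nearly all progenitors of E11.5 and E12.5. Sox1, the SoxB1 gene whose onset marks the early neural plate, stood at 39.9 CPM (36.6 to 43.4), 51.3 CPM (44 to 59.4) and 29.5 CPM (15.2 to 51.4) in progenitors of the 3 stages. Its thinned shares were 15%, 20.6% and 9.43%, and its unthinned shares 34.9%, 36% and 18.9%. Only 12 Sox1 UMIs lay behind the E13.5 value.

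Sox3, the X-linked SoxB1 gene, was at 161 CPM in E11.5 progenitors (154 to 168), 59.1 CPM at E12.5 (51.3 to 67.7) and 66.3 CPM at E13.5 (43.7 to 96.4). It was the 1 member that was lower in progenitors at E12.5 than at E11.5, and these 2 intervals did not overlap. The thinned share of progenitors with Sox3 was 45.7%, 20.6% and 24.5%, and the unthinned share 78.1%, 39.8% and 30.2%. Sox21, the SoxB2 repressor, differed little between the stages, at 122 CPM (117 to 129), 140 CPM (128 to 153) and 133 CPM (99.6 to 173). Sox21 UMIs were found in 35.9%, 41.6% and 39.6% of thinned progenitors, and in 65.9%, 61.6% and 60.4% unthinned.

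**Figure D1:**
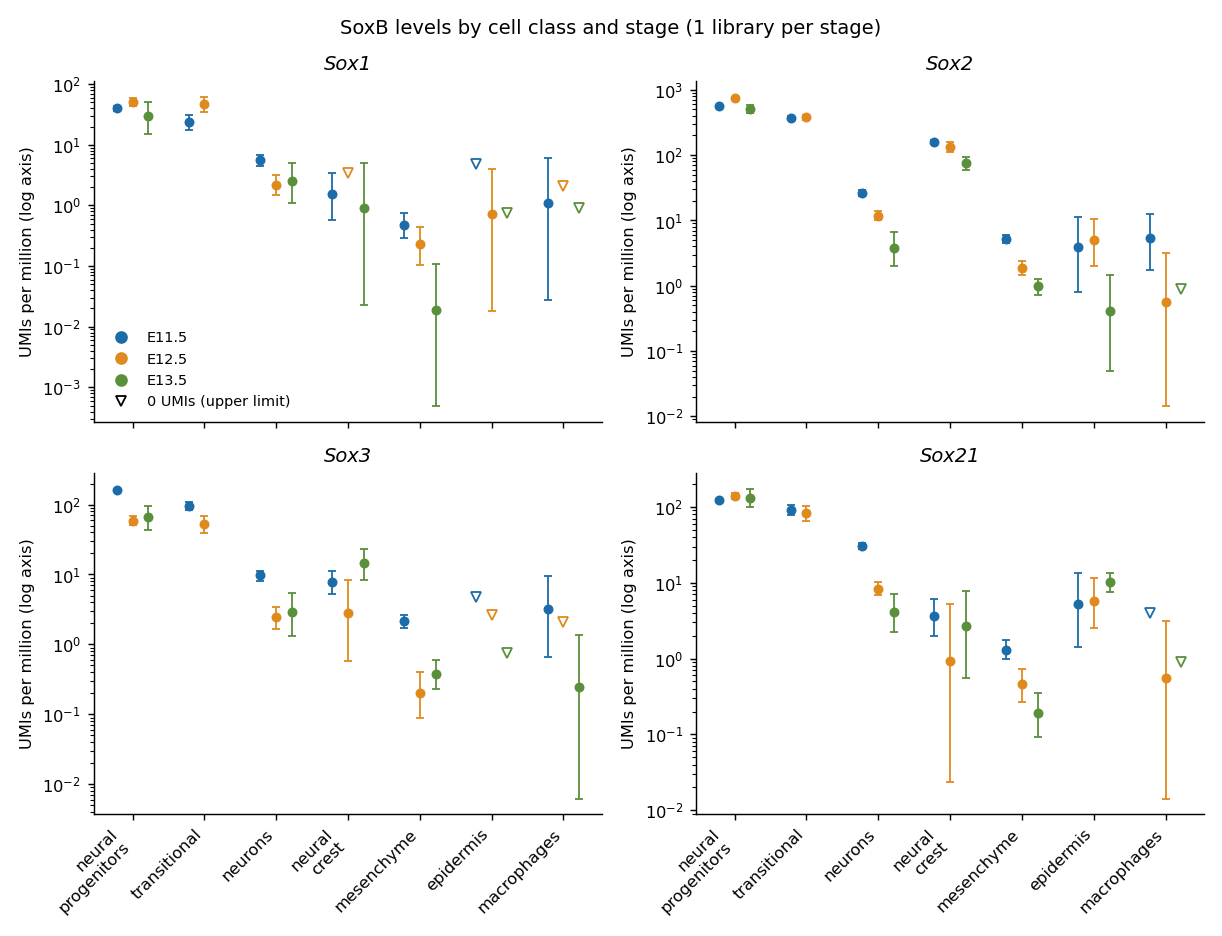
Level of each SoxB gene in CPM on a log axis (vertical) by cell class (horizontal), with colours for the 3 stages, bars for the 95% counting interval and open triangles at the upper limit where a class of that library had 0 UMIs. Progenitors hold the highest point of every panel, and in the Sox2 panel neural crest is next highest after the transitional cells, at 158, 135 and 75.4 CPM.

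Neurons had lower levels of all 4 genes than the progenitors of the same library. At E11.5, Sox2 was at 562 CPM in progenitors, against 26.3 CPM in neurons, a log2 ratio of 4.42 (4.27 to 4.56). Sox3 was at 161 CPM in progenitors, against 9.69 CPM in neurons, a log2 ratio of 4.06 (3.82 to 4.30), and Sox1 at 39.9 CPM against 5.58 CPM, a log2 ratio of 2.84 (2.51 to 3.18). Sox21 showed the smallest gap, with 122 CPM in progenitors and 30.1 CPM in neurons, a log2 ratio of 2.02 (1.88 to 2.18). All 4 members were thus past a log2 ratio of 1 (2-fold), a size reached in this direction by 14.2% of the 12246 genes with 50 or more UMIs in these classes (20% were lower by as much). At E12.5 the log2 ratios of progenitors over neurons were 4.54 (3.97 to 5.16) for Sox1, 6.0 (5.77 to 6.24) for Sox2, 4.60 (4.06 to 5.19) for Sox3 and 4.06 (3.76 to 4.37) for Sox21, again 4 of 4 past 1, where 14.9% of genes were (18.6% lower). At E13.5 they were 3.52 (2.11 to 5.02), 7.03 (6.19 to 8.01), 4.52 (3.39 to 5.79) and 4.99 (4.10 to 5.99) in the same gene order, all past 1. The genes with 50 or more UMIs were higher by that much in 10.3% of cases and lower in 17.4%, and of the members only Sox2 and Sox21 (2 of 2) had that many. The E13.5 neurons held only 8 Sox1, 12 Sox2, 9 Sox3 and 13 Sox21 UMIs. Removing called doublets took the Sox2 ratio to 5.02 at E11.5, and a stricter class rule took it to 5.50 at E11.5 and 7.92 at E12.5, Sox1 to 3.51 at E11.5 and 6.32 at E12.5, and Sox21 to 4.80 at E12.5.

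Free RNA of the suspension made up a small part of the neuronal UMIs. Thinned shares of neurons with Sox2 were 7.25%, 3.03% and 0.847% (11.2%, 5.05% and 1.06% unthinned), with median neuron depths of 9758, 8157.5 and 6108.5 UMIs. In erythroid cells, which should lack Sox2, the thinned shares were 1.6%, 1.29% and 0.172% (3.2%, 3% and 0.515% unthinned) at median depths of 25595, 17943 and 11142 UMIs. The neuron share was above the erythroid share in each library, but at E13.5 the thinned shares rested on 4 neurons and 1 erythroid cell and their intervals overlapped (0.231% to 2.16% and 0.00435% to 0.954%). From the droplets without a cell, free RNA was estimated to give 8.51%, 10.8% and 12.4% of the Sox2 UMIs of neurons at the 3 stages, and at most 0.51% of any member's UMIs in progenitors. For Sox21 in neurons the estimate was 0.793%, 2.46% and 1.46%.

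Levels of the SoxB genes were graded along the neuron markers, and the 4 genes did not have the same course. Cells of the neural tube and ganglia were ordered by their neuron marker UMIs per 10000 UMIs, a scale on which progenitors lie under 10, transitional cells between 10 and 30 and neurons from 30. At E11.5 Sox2 was at 555 CPM (532 to 579) in the cells under 2, 549 CPM (524 to 574) from 5 to 10, 369 CPM (344 to 395) in transitional cells, 104 CPM (89.4 to 119) from 30 to 60, 39.7 CPM (33.9 to 46.2) from 60 to 100 and 5.54 CPM (4.15 to 7.25) from 100. Within the progenitor range the level was flat, and the drop began with the transitional cells. Sox3 went the same way, with 148, 174, 96.4, 26.6, 14.3 and 4.39 CPM in these bins. Sox1 was at 37.3, 36.5, 23.3, 20.6, 10.5 and 0.523 CPM. Sox21 was at 127, 125, 91, 55.9, 50.9 and 16 CPM, so that the 60 to 100 bin (44.3 to 58.2) kept a level near that of the 30 to 60 bin (45.6 to 67.8), where the Sox2 intervals of the same bins did not overlap. That Sox21 level was held by few cells: 31 of 402 had 3 or more UMIs and 73.7% of the bin's Sox21 UMIs, and the unthinned share of cells with Sox21 was 29.2% from 30 to 60 and 19.4% from 60 to 100. At E12.5 levels were already low in the 60 to 100 bin, with 1.04 CPM for Sox1, 5.54 CPM for Sox2, 2.25 CPM for Sox3 and 8.13 CPM for Sox21, against 0.641, 3.04, 1.12 and 4.17 CPM in the bin from 100. Sox3 at E12.5 was at 97 CPM (74.4 to 124) in progenitors from 5 to 10, above the 48.9 CPM (37.3 to 62.9) of those under 2. Bins follow the marker scale and are not a measured time course, and a doublet of a progenitor and a neuron can fall between them.

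**Figure D2:**
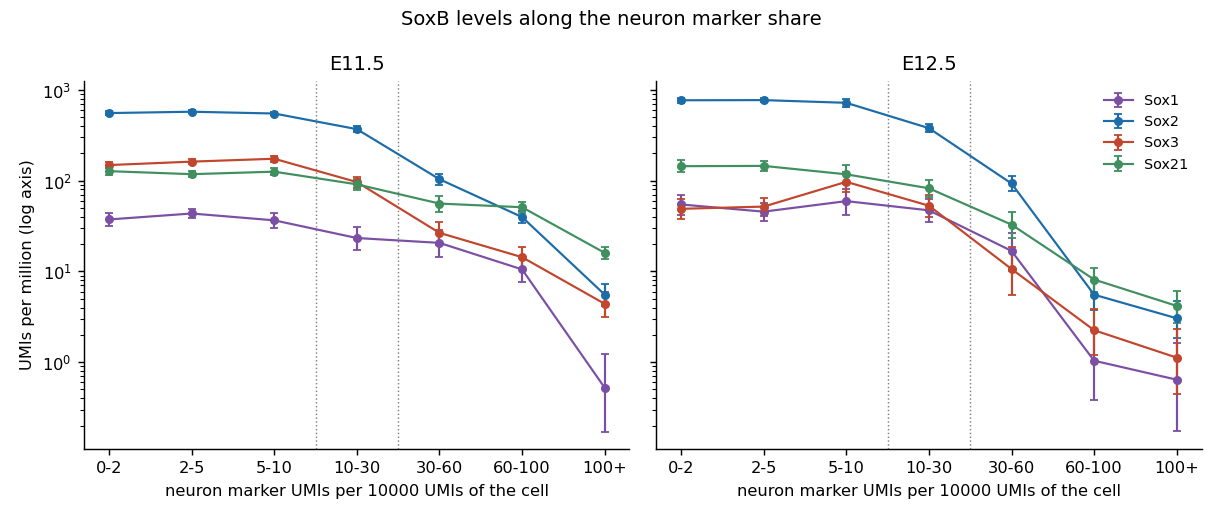
Level of each SoxB gene in CPM (vertical, log axis) in cells binned by neuron marker UMIs per 10000 UMIs (horizontal) at E11.5 and E12.5, with 95% counting intervals and dotted lines at 10 and 30, the limits of the transitional cells. The lines drop to the right of 10, and at E11.5 Sox21 drops more slowly than Sox2, with 50.9 CPM still present in the 60 to 100 bin.

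In neural crest and Schwann lineage cells Sox2 was the 1 member present at a substantial level. It was at 158 CPM at E11.5 (146 to 171), 135 CPM at E12.5 (113 to 159) and 75.4 CPM at E13.5 (60.1 to 93.3). The shares of these cells with a Sox2 UMI were 45.9%, 40.6% and 28.6% thinned, and 83.1%, 76.8% and 44.8% unthinned. Sox1 had 6, 0 and 1 UMIs there, where the 0 at E12.5 allows a level of up to 2.82 CPM (3 counts). Sox21 had 14, 1 and 3 UMIs, and Sox3 had 30, 3 and 16. The log2 ratio of progenitors over crest at E11.5 was 4.69 (3.55 to 6.14) for Sox1, 1.83 (1.71 to 1.95) for Sox2, 4.38 (3.86 to 4.95) for Sox3 and 5.08 (4.33 to 5.96) for Sox21, so 4 of 4 were past 1, as were 9.11% of genes (7.32% lower). Sox2 was thus the member with the smallest gap. At E12.5 Sox2 had a log2 ratio of 2.5 (2.25 to 2.75), Sox3 of 4.39 (2.82 to 6.68, on 3 crest UMIs) and Sox21 of 7.21 (4.73 to 12.52, on 1 crest UMI), and Sox1 one of at least 4.18, 4 of 4 where 10.4% of genes were higher and 8.08% lower. At E13.5 the ratios were 5.04 (2.28 to 10.45, on 1 crest UMI) for Sox1, 2.74 (2.37 to 3.12) for Sox2, 2.21 (1.26 to 3.20) for Sox3 and 5.62 (4.00 to 7.94) for Sox21, all past 1. Of genes with 50 or more UMIs 7.24% were higher and 10.2% lower by as much; Sox2 and Sox21 (2 of 2) were among them, while Sox1 and Sox3 had fewer UMIs. Sox2 in crest was lower at E13.5 than at E12.5 by a log2 ratio of -0.84 (-1.24 to -0.44), and E12.5 was close to E11.5, with -0.23 (-0.51 to 0.03). Sox3 in crest had a log2 ratio of 2.35 (0.54 to 4.77) for E13.5 over E12.5, from 16 UMIs at E13.5 and 3 at E12.5, too few to be among the genes with 50 or more UMIs, of which 1.64% were higher by 1 or more in that step and 1.86% lower. For E12.5 over E11.5 these shares were 5.86% and 2.34%, with Sox3 at -1.46 (-3.81 to 0.23) and Sox21 at -1.94 (-7.34 to 0.77) on 3 and 1 UMIs at E12.5, again with fewer than 50 UMIs in all. Crest cells had median depths of 25178.5, 13023 and 9130 UMIs, against 12091, 9112.5 and 6695 UMIs in progenitors. The crest class was not cleared of cells that also met the progenitor rule, and the progenitor marker list stood at 2122, 7078 and 3831 CPM in it. The part of such cells in the crest values was not tested.

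Outside the neural tube and its derivatives the SoxB genes were close to absent. Over all non-neural classes together (3086, 3891 and 6548 cells), Sox1 was at 0.529, 0.228 and 0.0126 CPM, and Sox2 at 5.25, 1.74 and 0.758 CPM. Sox3 was at 2.03, 0.228 and 0.316 CPM, and Sox21 at 1.73, 0.544 and 0.771 CPM. Droplets of 50 to 500 UMIs, which mostly hold free RNA, had Sox2 at 104, 52.2 and 12.3 CPM, above the Sox2 level of the non-neural cells in each library. Sox21 in these droplets was at 11.1, 8.35 and 1.57 CPM, also above the level over all non-neural classes. The neural progenitors, 16.3% of cells at E11.5, held 72.1% of the Sox1 UMIs, 73% of Sox2, 76.7% of Sox3 and 63.9% of Sox21 at that stage. At E13.5, with 53 progenitors, these shares were 54.5%, 41.6%, 29% and 34.4%, and the mixed cells held 19.5% of the Sox2 UMIs.

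At E13.5 epidermal cells (Krt14, Krt5, Epcam, Trp63) had more Sox21 than the mesenchyme, muscle, endothelium, macrophages and erythroid cells, where it was between 0 and 0.480 CPM. Sox21 had 4, 8 and 50 UMIs in 50, 87 and 292 epidermal cells of the 3 stages, or 5.24, 5.80 and 10.1 CPM (7.51 to 13.3 at E13.5), and at E13.5 these cells held 31.8% of all Sox21 UMIs. A Sox21 UMI was found in 37 of the 292 cells, 12.7% unthinned and 4.79% thinned, and no more than 5 UMIs were found in any of them. At E11.5 the epidermal level was like that of muscle (4.90 CPM, 22 UMIs) and mesothelium (4.20 CPM, 5 UMIs). In the macrophages of the E13.5 library, with a median of 12487 UMIs, 0 of 303 cells had one. Sox1 and Sox3 had 0 UMIs in the E13.5 epidermal cells, which allows up to 0.607 CPM, and Sox2 was at 0.405 CPM. The Sox21-positive epidermal cells of E13.5 had the neural progenitor marker list at 67 CPM, against 92.3 CPM in the Sox21-negative ones. The neuron list was at 14.9 CPM, against 49.2 CPM, and the epidermis list at 4430 CPM, against 4107 CPM. In that list Krt14 (1745 against 1490 CPM), Epcam (515 against 418) and Trp63 (243 against 172) were higher. Krt15 (1283 against 1316 CPM), Krt5 (645 against 694) and Krt8 (0 against 16.4) were lower.

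Between E11.5 and E12.5 the progenitors changed in Sox3 far more than in the other members. The log2 ratio of E12.5 over E11.5 was -1.45 for Sox3 (-1.66 to -1.24), which is 2.73-fold lower. It was 0.44 for Sox2 (0.37 to 0.50), 0.36 for Sox1 (0.11 to 0.61) and 0.19 for Sox21 (0.04 to 0.34), all above the median of 0.10 over the 10870 genes compared. So 1 of 4 members was lower by a log2 ratio of 1 or more, where 2.24% of genes were, and 0 of 4 were higher by that much, where 7.61% were. The other stage steps gave wide intervals. For E13.5 over E12.5 the log2 ratio was -0.60 for Sox2 (-0.81 to -0.39), -0.80 for Sox1 (-1.78 to 0.04), 0.17 for Sox3 (-0.47 to 0.75) and -0.08 for Sox21 (-0.51 to 0.33), with 0 of 4 past 1 in either direction (4.42% of genes higher, 5.9% lower). For E13.5 over E11.5, Sox3 stood at -1.28 (-1.89 to -0.74) and Sox2 at -0.16 (-0.37 to 0.04), so 1 of 4 was lower by 1 or more where 10.9% of genes were, and 16.1% were higher.

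The E12.5 over E11.5 value of Sox3 was below 0 in each of the 6 subsets of progenitors examined. In progenitors with dorsal markers (Pax3, Pax7, Msx1, Olig3, Gsx1) it was -1.56 (-1.83 to -1.30), and in those with ventral markers (Nkx6-1, Nkx6-2, Olig2, Nkx2-2, Nkx2-9) it was -0.81 (-1.40 to -0.25). It was -1.40 (-1.79 to -1.03) in progenitors with 2 or more neurogenic genes such as Neurog2, and -1.69 (-2.08 to -1.32) in those with none. As for the makeup of the class, dorsal cells were 65.4% of progenitors at E12.5 and 74.5% at E11.5, and neurogenic cells were 33.4% and 34.5%. The pools also differed in their sex mix, which bears on an X-linked gene. Xist UMIs were found in 25.9% of E12.5 progenitors and 65.6% of E11.5 progenitors, and Y-linked UMIs in 57.6% and 28.3%. Cells that held Xist but no Y-linked UMI numbered 82 of 344 at E12.5 and 633 of 1030 at E11.5, and those that held a Y-linked UMI but no Xist 191 and 249. Within the Xist cells Sox3 was at 57.2 CPM at E12.5 and 158 CPM at E11.5, a log2 ratio of -1.47 (-1.91 to -1.05). Within the Y-linked cells it was at 57 CPM at E12.5 and 165 CPM at E11.5, a log2 ratio of -1.54 (-1.84 to -1.24). Inside a library, Xist over Y-linked cells had log2 ratios of -0.07 (-0.21 to 0.08) at E11.5 and 0.01 (-0.51 to 0.50) at E12.5. The subsets share cells with one another and come from 1 library per stage. The part of the sex mix or of the class makeup in the stage value of Sox3 was not tested. A difference in Sox3 between Xist and Y-linked cells was not detectable at this depth.

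**Figure D3:**
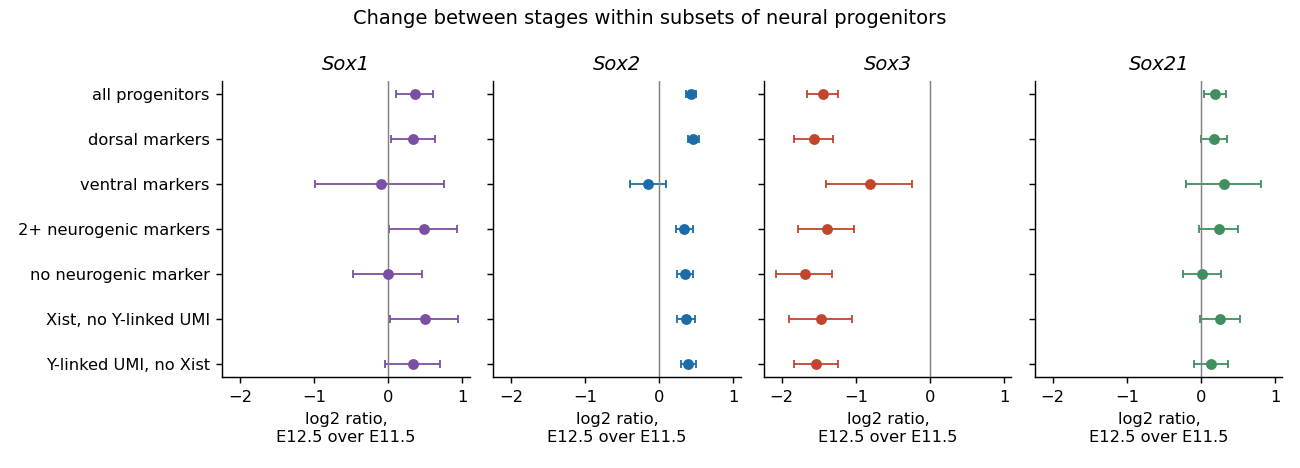
The log2 ratio of E12.5 over E11.5 for each SoxB gene in progenitors and subsets of them, with 95% counting intervals. Every Sox3 point lies below 0, between -0.81 in ventral and -1.69 in non-neurogenic progenitors, whether cells are split by position, by neurogenic genes or by Xist and Y-linked UMIs.

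In neurons all 4 members were lower at E12.5 than at E11.5. The log2 ratios were -1.34 (-2.0 to -0.72) for Sox1, -1.15 (-1.42 to -0.88) for Sox2, -1.99 (-2.59 to -1.44) for Sox3 and -1.85 (-2.16 to -1.54) for Sox21, so 4 of 4 were lower by 1 or more, where 4.31% of genes were (4.91% higher). For E13.5 over E12.5 Sox2 had a log2 ratio of -1.62 (-2.61 to -0.78) and Sox21 one of -1.0 (-1.96 to -0.17), with Sox1 at 0.22 (-1.12 to 1.38) and Sox3 at 0.25 (-1.01 to 1.35). Sox2 and Sox21 were the 2 members with 50 or more UMIs here. Sox2 was lower by more than 1. Sox21 lay at the limit and passed it only without the 0.5 UMI added in the count over all genes. In that count 3.64% of such genes were lower by 1 or more (2.29% higher). The share of cells in the 30 to 60 and 60 to 100 bins differed between stages, with 126 and 681 cells in the E12.5 library and 144 and 402 in the E11.5 library, and the part of that mix in the stage values was not tested.

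Along the back-to-belly axis of the neural tube the 4 genes were close to even at E11.5, with small differences at E12.5 and in the intermediate zone. At E11.5 ventral and dorsal progenitors (63 and 767 cells) had log2 ratios whose intervals held 0 for all 4 genes. At E12.5 Sox2 was at 548 CPM in ventral progenitors (32 cells), against 794 CPM in dorsal ones (225 cells), a log2 ratio of -0.53 (-0.75 to -0.33), and Sox3 was at 88.3 CPM in ventral ones, against 55.3 CPM, a ratio of 0.68 (0.08 to 1.23). The Dbx1 or Dbx2 progenitors of the intermediate zone at E11.5 (68 cells) had Sox1 at 22.6 CPM, against 41.9 CPM in dorsal ones, a ratio of -0.89 (-1.66 to -0.21).

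Roof plate cells stood apart, keeping Sox2 while lacking most Sox21 and Sox3. The roof plate is the dorsal midline of the neural tube and a source of Wnt and BMP signals; 32 progenitors at E11.5 had 2 or more of its markers (Lmx1a, Gdf7, Wnt1, Rspo1, Wnt3a), and 30 of them also counted as dorsal. Sox21 was at 5.04 CPM in roof plate cells (0.611 to 18.2, from 2 UMIs), against 126 CPM in dorsal progenitors, a log2 ratio of -4.64 (-7.69 to -2.78). Sox3 was at 22.7 CPM (10.4 to 43.1), against 164 CPM in dorsal progenitors, a log2 ratio of -2.85 (-3.98 to -1.92), or 7.21-fold lower. Sox2 was at 426 CPM (364 to 495), against 575 CPM, a ratio of only -0.43 (-0.66 to -0.21), and Sox1 at 25.2 CPM against 41.9 CPM, a ratio of -0.73 (-1.80 to 0.16). Other progenitor genes were present in the roof plate cells. Hes5, a Notch target of neural progenitors, was at 570 CPM in roof plate cells, against 275 CPM in dorsal ones. It is among the markers that set the progenitor class, so its presence was favoured by the choice of cells. Sox9 and Top2a, which set no class, were at 338 CPM against 345 CPM and at 625 CPM against 813 CPM. Wnt1, one of the markers that chose them, was at 393 CPM against 22.2 CPM. Against the dorsal cells with no roof plate marker, a comparison added after the values were seen, the log2 ratios were -2.96 for Sox3 and -4.76 for Sox21, and none of the 32 cells was called a doublet. E12.5 and E13.5 had 9 and 2 such cells and are not compared.

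**Figure D4:**
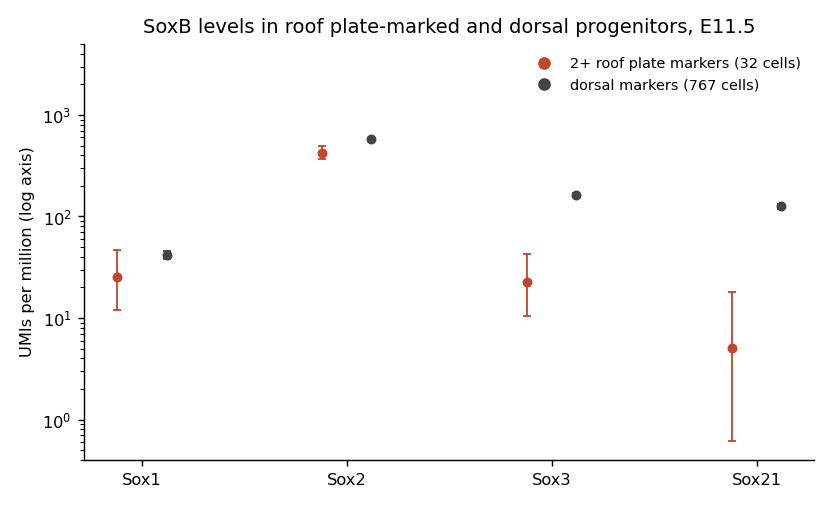
Level of each SoxB gene in CPM (vertical, log axis) in 32 roof plate cells and 767 dorsal progenitors at E11.5, with 95% counting intervals. The points of Sox2 lie near each other (426 and 575 CPM), and those of Sox21 far apart (5.04 and 126 CPM).

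In neurons most Sox21 UMIs lay in few cells. At E11.5, 161 of the 1297 neurons had a Sox21 UMI and 65 had 3 or more. Those 65 held 73.8% of the 469 Sox21 UMIs of the class, with up to 13 in a cell. At E12.5, 44 of 1386 neurons had a Sox21 UMI, and the 11 with 3 or more held 67.3% of 110 UMIs. Neurons were therefore divided by the subtype whose marker genes had the most UMIs, at least 3, and the groups below are described with no test.

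A set of 21 neurons was marked by Gata2 and Gata3 at E11.5, which are genes of V2b interneurons and also of sympathetic neurons. Sox21 was at 170 CPM in them (117 to 238), with a UMI in 47.6% of the cells. The motor-marked set (231 cells, by Mnx1, Isl1, Slc18a3, Lhx3 and Slit3) had 33.4 CPM (28 to 39.6), with Sox21 in 13% of cells, and held 28.4% of the neuronal Sox21 UMIs. Within it, the cells with most Sox21 did not carry the motor neuron genes Isl1 and Mnx1: of 19 cells with 3 or more Sox21 UMIs, 18 had Lhx3 and 15 had Sox14, the other SoxB2 gene, while 1 had Isl1 and 0 had Mnx1. Of its 201 cells without Sox21, 188 had Isl1, 69 Mnx1, 36 Lhx3 and 1 Sox14. So within the motor-marked set Sox21 went with Sox14 and not with Isl1, a split looked at after the Sox21 values had been seen.

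Neurons with no subtype call (92 cells) had 69.3 CPM (53.3 to 88.7). The groups of E11.5 given next had less Sox21 than the motor-marked set, although the interval of the dorsal excitatory neurons overlapped that of the motor-marked set. Dorsal excitatory neurons (70 cells, marked by genes such as Tlx3 and Lmx1b) had 26.6 CPM (16 to 41.5). Neurons marked by Pax2, Lhx1, Lhx5, Gad1 and Gad2 (517 cells) had 13 CPM (10 to 16.5). Lbx1 was not among their markers, and their position was not examined. The dI1 neurons (210 cells), which are marked by genes such as Barhl1 and Lhx9, had 5.87 CPM (3.13 to 10), sensory neurons of the dorsal root ganglia 5.27 CPM and sympathetic neurons 4.77 CPM, and 43 neurons marked by En1 and Foxd3 had 0 UMIs, which allows up to 7.72 CPM. Without called doublets dI1 neurons were at 2.95 CPM and sympathetic neurons at 1.24 CPM, and by the stricter rule for neurons the dorsal excitatory neurons were at 9.37 CPM. At E12.5 the motor-marked cells (60) had 9.4 CPM (4.51 to 17.3), with all 10 UMIs in 1 cell. The dorsal excitatory neurons (406) had 7.28 CPM (4.66 to 10.8), or 3.46 CPM by the stricter rule. The neurons marked by Pax2, Lhx1, Lhx5, Gad1 and Gad2 (638) had 2.72 CPM (1.52 to 4.48). Their level was 0.644 CPM by the stricter rule and 1.30 CPM without called doublets. The SoxB1 genes were low in the same cells: Sox1 in motor-marked neurons of E11.5 came to 1 UMI, or 0.251 CPM (0.00637 to 1.4), against 25.7 CPM (8.34 to 60) in the Gata2 and Gata3 cells, and Sox2 lay between 7.9 and 37 CPM in the groups named that had a subtype call.

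RNA of several SoxB genes was often found in the same progenitor. After thinning to 4000 UMIs, 4.6%, 3.2% and 3.8% of progenitors at the 3 stages had none of the 4, 32.6%, 40.1% and 49.1% had 1, 40.5%, 38.7% and 37.7% had 2, and 18.6%, 16.3% and 9.4% had 3. All 4 were found together in 38 E11.5 progenitors (3.7%) and 6 E12.5 progenitors (1.7%). Sox2 was part of the commonest combinations. The pair of Sox2 with Sox3 alone made up 20.9%, 8.7% and 9.4% of progenitors. The pair of Sox2 with Sox21 alone made up 12.7%, 20.9% and 24.5%. Most progenitors had Sox2, so these shares largely follow those of Sox3 and Sox21 themselves. At E11.5 Sox3 was in 46.3% of progenitors with Sox2 and 41.7% of those without. At E12.5 Sox21 was in 41.2% and 45.5%, and in both cases the intervals overlapped. Sox3 was somewhat more frequent in E11.5 progenitors with Sox21, at 51.4% (46.1% to 56.6%), than in those without, at 42.6% (38.8% to 46.4%) (the intervals overlapped). At E12.5 the shares were 21% and 20.4%, and at E13.5 14.3% of 21 cells with Sox21 and 31.3% of 32 without. So RNA of a SoxB1 and of the SoxB2 gene was found in the same cells. Among neurons 83.65%, 94.37% and 96.40% had none of the 4, and Sox21 alone was the commonest single find at E11.5 (5.24%, against 4.16% for Sox2 alone). Among crest cells 41.89%, 40.58% and 25.71% had Sox2 alone. The variance of UMIs over their mean in thinned E11.5 progenitors was 1.07 for Sox1, 1.32 for Sox2, 1.24 for Sox3 and 1.25 for Sox21, and in neurons it was 2.49 for Sox21, where few cells held many UMIs.

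The genes whose levels went most like the members' were sought across 28 sums of a class in a library. Likeness was Pearson's r of log2(CPM + 10), ranked over 14667 genes with class markers left out; the sums share libraries and depth, so the values are descriptive. For Sox2 the closest were Itgb8 at 0.960, the overlapping transcript Sox2ot at 0.956, the dorsal factor Pax3 at 0.934, Vit at 0.921 and Fam181b at 0.920. Sox1 was closest to Adgrv1 (0.987), Pantr2 (0.974), Gm33152 (0.969) and the growth factor Fgf15 (0.968). For Sox3 they were Vit (0.960), Pantr2 (0.947), Adgrv1 (0.946), Sox2ot (0.945) and Itgb8 (0.932), and for Sox21 Pantr2 (0.977), Gm4675 (0.974), Adgrv1 (0.967), the zinc finger factor Sall1 (0.956) and Fgf15 (0.954). Among the members Sox1 and Sox21 were most alike, at 0.963. Sox1 and Sox3 reached 0.939, Sox3 and Sox21 0.933, Sox2 and Sox3 0.916, Sox1 and Sox2 0.873 and Sox2 and Sox21 0.860, so Sox2 stood furthest from the others, and it is the member with a substantial crest level.

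In the GENCODE annotation at hand, which is of another build than the counts, Sox2 lies inside Sox2ot and Sox1 inside Sox1ot on the same strand. If the counting used such models, reads may be split between each pair and their values are uncertain to that extent. Sox2ot was at 72.2, 73.2 and 108 CPM in progenitors, and at 10.8, 4.11 and 1.28 CPM in neurons, over the 3 stages. Sox1ot had 29, 27 and 1 UMIs in progenitors.

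Genes of pathways around the SoxB factors were counted from lists, by the same log2 ratio of 1, and those named have the largest ratios of their list. In progenitors over neurons at E11.5, where the median of all genes was -0.07, 7 of 12 tested Notch pathway genes were higher and 3 lower (list median 1.76): Lfng, which modifies Notch receptors, had 4.46 and the target Hes1 3.84, and the ligands Dll3 and Jag2 had -4.12 and -4.02. Of 12 proneural genes, 2 were higher and 8 lower, with a median of -2.57, and Nhlh2 (-7.86), Neurod1 (-6.74), Neurod2 (-5.47, on 1 progenitor UMI) and Nhlh1 (-5.04) were furthest from 0. POU genes, which encode partners of SOX proteins, had 0 of 8 higher and 4 lower, among them Pou3f1 at -7.89, Pou2f2 at -5.09, Pou2f1 at -1.23 and Pou6f1 at -1.04. Other Sox genes were divided, with 4 of 9 higher and 4 lower. Sox9, a gene of progenitors and later glia, was at 376 CPM in progenitors and 26.9 CPM in neurons (log2 ratio 3.81), and Sox11, which acts in neuron maturation, at 894 CPM in progenitors and 3869 CPM in neurons (-2.11). Sox7 had 5.09 and Sox6 3.28. Of 16 other progenitor genes 12 were higher and 1 lower, with Gas1 at 3.47, Gli3 at 3.25, Gli2 at 3.03 and the RNA-binding Lin28a at -4.77, and of 7 glial genes 5 were higher and 0 lower, with the growth factor receptor Fgfr3 at 4.17, Nfix at 3.78, Nfib at 2.77 and the glutamate transporter Slc1a3 at 2.66. All genes tested at this stage were higher in 14.2% and lower in 20% of cases. At E12.5, where 14.9% of all genes were higher and 18.6% lower, the counts were 9 higher and 2 lower of 12 Notch genes, 2 and 7 of 12 proneural genes, 1 and 3 of 7 POU genes, 3 and 4 of 8 other Sox genes, 11 and 1 of 15 other progenitor genes and 8 and 0 of 9 glial genes. At E13.5, where the shares of all genes were 10.3% and 17.4%, they were 3 and 0 of 4 Notch genes, 2 and 5 of 9 proneural genes, 2 and 2 of 7 POU genes, 2 and 3 of 6 other Sox genes, 7 and 2 of 12 other progenitor genes and 5 and 0 of 8 glial genes.

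While Sox3 was lower at E12.5, the glial list was higher in the same progenitors. For E12.5 over E11.5, 8 of 9 glial genes were higher and 0 lower (list median 2.69, against 0.10 for all genes, of which 7.61% were higher and 2.24% lower): the oligodendrocyte factor Olig1 had a log2 ratio of 6.41, Bcan 5.98, the astrocyte gene Aldh1l1 5.22 and Nfix 3.27. Of 11 Notch genes 6 were higher and 0 lower, led by Dll3 (1.55), Mfng (1.33), Notch2 (1.18) and Lfng (1.17). The proneural list had 2 of 7 higher and 3 lower, with Neurog1 at -1.37, Ptf1a at -1.81 and Atoh1 at -4.58. Among 9 other Sox genes, Sox8, an early glial gene, was higher (2.48) and Sox7 lower (-1.92), with Sox4 at 0.55 and Sox6 at 0.52. POU genes had 0 of 6 past 1 in either direction. Of 15 other progenitor genes 2 were higher (Id4 at 1.07, Id1 at 1.03) and 2 lower (Ccnd2 at -2.31, Lin28b at -1.04). For E13.5 over E12.5, where 4.42% of all genes were higher and 5.9% lower, 4 of 9 glial genes were higher and 0 lower, 1 of 11 Notch genes higher and 3 lower, and 1 of 6 other Sox genes lower (Sox11 at -1.33).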

How the data were processed

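The authors deposited UMI counts per gene and droplet for 3 libraries (1 per stage); Cell Ranger 8.0.1 and GRCm39 are named in the submitters' processing notes. Which annotation release was used was not given in the sources used here. All droplets are in the count tables, so cells were taken as barcodes with 4000 or more UMIs. The libraries held 103383215 (E11.5), 94155624 (E12.5) and 113402193 (E13.5) UMIs. Classes were set by marker UMIs (progenitors: 4 or more of 9 progenitor markers, 10 or more marker UMIs per 10000 and under 10 neuron marker UMIs per 10000; neurons: 5 or more of 10 markers and 30 or more per 10000; crest: 3 or more of 7 markers), with limits chosen after marker UMIs had been seen. The members and lists were chosen with earlier results of these data known.

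Levels are summed CPM with exact Poisson intervals, shares are exact Clopper-Pearson intervals after thinning to 4000 UMIs, and ratios have exact conditional binomial intervals. A level with no UMI is limited at 3 counts. Genes with 50 or more UMIs in the 2 groups were compared, with 0.5 UMI added in the counts over all genes and lists. Named are the 4 members, the 5 genes most like each (200 or more UMIs, sums of 50 or more cells) and the 4 largest log2 ratios per list in the main comparisons; others were chosen after their values were seen, and some genes that the rule names are not reported here. Doublets called by scrublet (180, 123 and 192 cells) were kept. Free RNA was estimated from droplets of 50 to 500 UMIs. The steps were tested on simulated data. Promoters come from RefSeq GRCm38.p6, another build than that of the counts. Python 3.11.15, numpy 2.4.6, scipy 1.17.1, pandas 2.3.3 and scanpy 1.11.5 were used. Alternatives were a minimum of 8000 UMIs, a filter of 500 genes and 10% mitochondrial UMIs, doublets removed, a stricter class rule, free RNA subtracted, no thinning and cells split by Xist and Y-linked UMIs.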

Additional observations from a re-analysis of the deposited data

How the results depend on the processing

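No progenitor over neuron ratio, progenitor stage ratio or roof plate ratio of the 4 members changed direction under the alternatives run; the other ratios were computed as reported only. Filtering on genes and mitochondrial UMIs and subtracting free RNA left all 12 ratios of progenitors over neurons and all 8 stage ratios of progenitors within their counting intervals, and so did a minimum of 8000 UMIs for the 8 and 4 ratios it could give. With called doublets removed, the progenitor over neuron ratios at E11.5 were 3.24 for Sox1, 5.02 for Sox2 and 4.43 for Sox3, and that of Sox2 at E12.5 was 6.43. The stricter class rule gave 3.51 for Sox1, 5.50 for Sox2, 4.45 for Sox3 and 2.28 for Sox21 at E11.5, and 6.32 for Sox1, 7.92 for Sox2 and 4.80 for Sox21 at E12.5. It gave E12.5 over E11.5 ratios in progenitors of 0.36 for Sox2 and -1.72 for Sox3. It leaves out the cells between classes by construction. At E13.5 a minimum of 8000 UMIs and the stricter rule left 18 and 28 progenitors, too few for a value. Without thinning, 17 of 24 shares lay outside the thinned interval. Of the Sox21 levels in neuron subtypes, 5 of 18 moved with doublets removed and 5 of 17 with the stricter rule, both added after the values were seen, and the roof plate ratios did not. No paired analysis was possible because each stage has 1 library. The 53 progenitors of E13.5, with 12 Sox1 UMIs, give wide intervals at that stage.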
